A study of Mus musculus with 6 samples.

Results

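The genes described here encode 9 enzymes that take hexose sugars along routes beside glycolysis. They are the oxidative pentose phosphate enzymes (G6pdx, Pgls and Pgd), the non-oxidative ones (Rpia, Rpe, Tkt and Taldo1) and the first enzymes of galactose use (Galk1 and Galt). They were chosen by symbol, and all 9 were among the 13843 genes of the deposited table. The RNA came from the ventricles of single mouse embryos at stage E12.5, on a C57BL/6 background. The 3 control embryos were labelled Vhl(flox/flox) / Nkx2.5(+/+), and the 3 embryos labelled knockout were Vhl(flox/flox) / Nkx2.5(Cre/+), so all 6 carried floxed Vhl on both chromosomes. Cre recombinase made from the Nkx2-5 locus, which is active in heart progenitors and their muscle cells, cuts the floxed part out of Vhl. Cells of the ventricle that never made Cre keep Vhl, and the knockouts also differ from controls by the Cre allele itself. Per the labels, control 1 and knockout 1 were littermates (litter 1), as were control 2 and knockout 2 (litter 2), while control 3 and knockout 3 came from litters 3 and 4, although the design text counts 3 litters.

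When oxygen is present, the Vhl protein tags hypoxia-inducible factors for breakdown, and those factors raise transcription of many glycolytic enzymes. The pentose phosphate pathway leaves glycolysis at the sugar phosphate that hexokinase makes. Its oxidative arm yields NADPH, which serves lipid synthesis and the defence against oxidants, and its non-oxidative arm makes ribose phosphate for nucleotides and returns carbon to glycolysis. Galactose enters the same pool through the Leloir pathway, in which galactokinase (Galk1) adds a phosphate, galactose-phosphate uridylyltransferase (Galt) moves it onto a UDP carrier, and phosphoglucomutase delivers glucose phosphate.

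Vhl itself did not match the label of knockout 3. Its values were 33.7 to 38.6 over the 3 controls, knockouts 1 and 2 had 11.1 and 10.3, and 34.5 was read in the library labelled knockout 3. Each comparison therefore sets knockouts 1 and 2 against the 3 controls and shows the library labelled knockout 3 apart, with a fit of all 6 libraries as labelled beside it. That library was left out because of its Vhl value, so the comparison is partly circular for genes that follow Vhl. Values are the deposited normalized values, on a scale close to CPM, from 9067805 to 12592902 reads per library. The heart muscle markers were all present in the table, with summed values of 35180 to 42761 in controls and 40006 and 35860 in knockouts 1 and 2. Of these 10 markers 7 had a log2 fold change below 0 (median -0.21), and 0 had an adjusted p under 0.05 (limma). Both knockouts were below all 3 controls for 4 of the 10, where 17.0% of all genes were. With litter as a block 2 of the 10 passed as lower, where 3.21% of all genes did (limma). In bulk tissue, fewer cells of a type and less RNA per cell cannot be told apart.

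Galactokinase and the pentose phosphate enzyme Pgd rose in knockouts 1 and 2. Galk1 was 2.65-fold higher than in controls and Pgd, the second dehydrogenase of the oxidative arm, was 1.42-fold higher. The other 7 genes did not pass the threshold, an adjusted p under 0.05 by limma on log2(value + 1), adjusted over all genes. Of the 9 members 2 were thus higher and 0 lower, where 3.01% of all tested genes were higher and 1.24% lower (4.25% in either direction). At an unadjusted p under 0.05, 5 members were higher and 0 lower, where 9.74% of all genes were higher and 8.05% lower (17.8% in either direction). On recovered reads edgeR and DESeq2 also called 2 higher and 0 lower. With litter as a block, on litters 1 and 2 alone, 4 members were higher and 0 lower by limma, G6pdx and Tkt besides Galk1 and Pgd, where 4.92% of all genes were higher and 3.21% lower (8.13% in either direction). The median log2 fold change of the 9 was 0.24, against -0.01 over all genes. Both knockouts lay above all 3 controls for 5 members, where 18.1% of all genes did so, and below them for 1 member, Galt, where 17.0% did (35.1% in either direction). With all 6 libraries as labelled, 0 of the 9 members and 0.00% of all genes passed in either direction by limma, with 859 genes at an unadjusted p under 0.05.

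**Figure D1:**
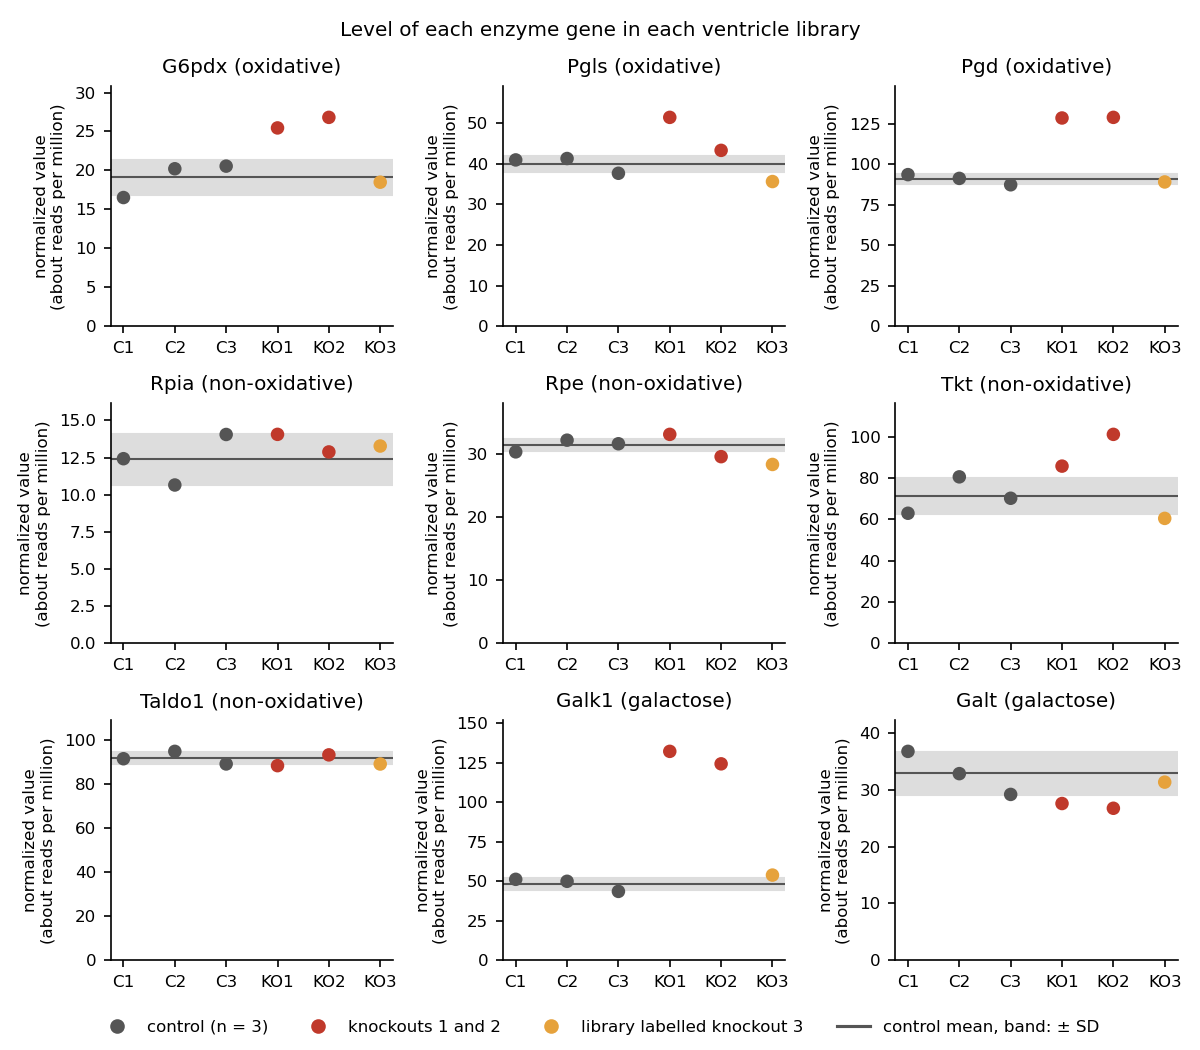
Deposited normalized value (vertical axis, close to CPM, from 0) of each of the 9 genes in each library (C, control; KO, labelled knockout), with the control mean as a line and ± SD as a band. Galk1 is at 132 and 124 in knockouts 1 and 2 and between 43.6 and 53.9 in the other 4 libraries, while Taldo1 and Rpe stay near the control band throughout.

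In the oxidative arm 1 of 3 genes rose, where 3.01% of all genes did. All 3 had both knockouts above every control, as 18.1% of all genes had. Pgd, which makes ribulose phosphate and NADPH (chromosome 4, 149149991 to 149166771, minus strand, GRCm38), stood at 93.5, 91.2 and 87.3 in controls 1 to 3 and at 128 and 129 in knockouts 1 and 2. The groups did not overlap, and the knockouts differed from each other by less than any pair of controls did. Its log2 fold change was 0.50 ± 0.07 (SE, adjusted p = 0.0074, limma), and the differences within litters 1 and 2 were 0.45 and 0.49. With knockout 2 as the lone knockout the log2 fold change was the same 0.50, with an adjusted p of 0.056. These values rest on 832 to 1589 reads per library.

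G6pdx, the gate of the pathway, encodes glucose-phosphate dehydrogenase on the X chromosome (74409483 to 74429194, minus strand). It was the lowest oxidative gene, at 16.5, 20.2 and 20.6 in controls and 25.5 and 26.8 in knockouts 1 and 2. Both knockouts were above all controls, yet the log2 fold change of 0.44 ± 0.13 did not pass (95% interval 0.15 to 0.73, adjusted p = 0.11, limma). Control 1 was the lowest library and its littermate knockout 1 was 1.54 times as high, against 1.33 times in litter 2. With litter as a block the gene passed (adjusted p = 0.034, limma). Only 149 to 315 reads per library cover this gene, and it lies inside Ikbkg, a gene on the opposite strand that stood at 52.6 ± 4.93 in controls (SD, n = 3) and 52.2 and 52.8 in knockouts 1 and 2.

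Pgls, the lactonase between both dehydrogenases (chromosome 8, 71592176 to 71601092, plus strand), had 40.9, 41.3 and 37.7 in controls and 51.4 and 43.3 in knockouts 1 and 2. Knockout 1 stood well above the controls and knockout 2 barely so. The log2 fold change was 0.24 ± 0.10 (95% interval 0.00 to 0.47, adjusted p = 0.28, limma), with 0.32 in litter 1 and 0.07 in litter 2. Its annotated span overlaps Fam129c on the same strand, which was at 2.49 ± 1.00 in controls.

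In the non-oxidative arm 0 of 4 genes passed, with a median log2 fold change of 0.06 and 1 of the 4 at an unadjusted p under 0.05 (17.8% of all genes were), and edgeR and DESeq2 also called 0 of the 4. That gene was Tkt, transketolase, which moves carbon units between sugar phosphates (chromosome 14, 30548359 to 30574720, plus strand). Its values were 63.02, 80.6 and 70.3 in controls and 85.8 and 101 in knockouts 1 and 2. The knockouts were above all controls, but control 2 came close to knockout 1, and the controls spread by 12.4% of their mean. The log2 fold change was 0.39 ± 0.12 (95% interval 0.11 to 0.66, adjusted p = 0.13, limma). Within each litter the knockout was higher, by 0.44 and 0.32, and with litter as a block Tkt passed (adjusted p = 0.019, limma).

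Taldo1, transaldolase, the partner of transketolase in carbon return (chromosome 7, 141392199 to 141402968, plus strand), had 91.3, 94.6 and 88.9 in controls and 88.2 and 93.06 in knockouts 1 and 2. The groups overlapped, with knockout 1 just below the lowest control and knockout 2 inside the control range, and with a log2 fold change of -0.02 ± 0.07 and a 95% interval of -0.18 to 0.15. Rpe, the epimerase that makes xylulose phosphate (chromosome 1, 66700831 to 66719805, plus strand), had 30.3, 32.1 and 31.6 in controls and 33.1 and 29.5 in knockouts 1 and 2. Knockout 1 was above and knockout 2 below the controls, with a 95% interval of -0.22 to 0.22. The end of Rpe overlaps Kansl1l on the opposite strand, which was at 20.9 ± 1.93 in controls and at 14.5 and 15.2 in knockouts 1 and 2 (log2 -0.47 ± 0.12, adjusted p = 0.082, limma). Rpia, the isomerase that forms ribose phosphate (chromosome 6, 70765720 to 70792232, minus strand), was the least read member, with 112 to 174 reads per library. It stood at 12.4, 10.7 and 14.1 in controls and 14.1 and 12.9 in knockouts 1 and 2. These values overlapped, and the 95% interval of -0.22 to 0.46 was the widest among the 4 non-oxidative genes.

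**Figure D2:**
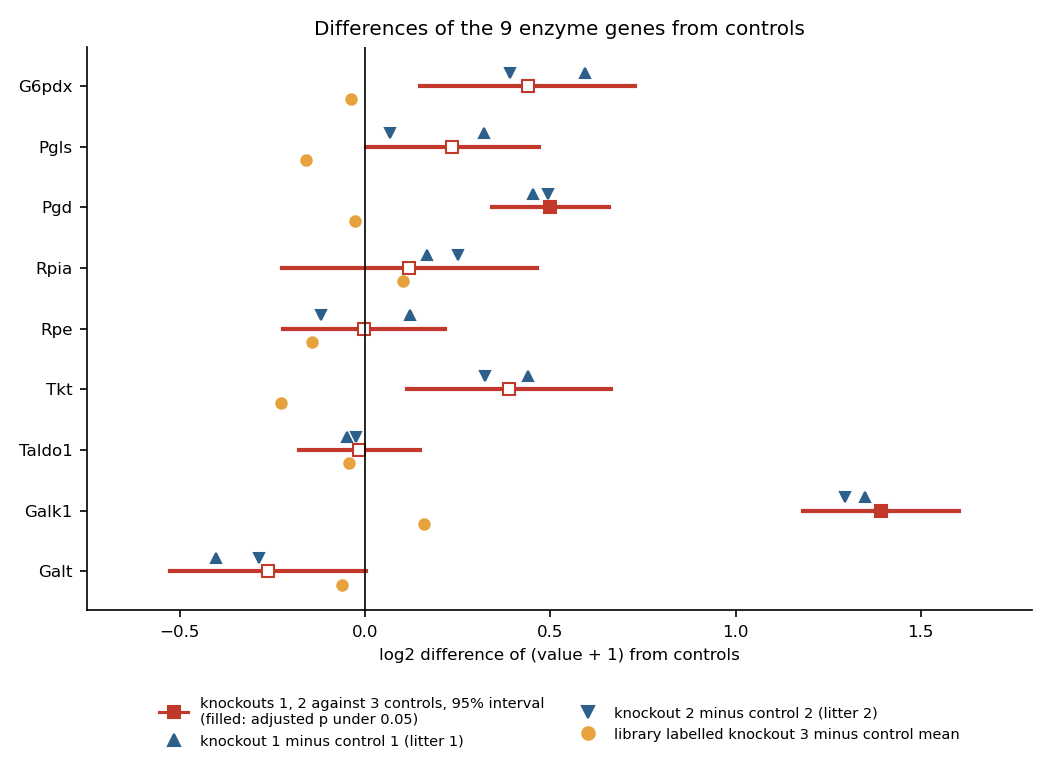
Log2 difference of (value + 1) from controls (horizontal axis) for the 9 genes, with squares and bars for knockouts 1 and 2 against 3 controls and their 95% interval (filled where the adjusted p is under 0.05), triangles for each knockout minus its littermate control, and circles for the library labelled knockout 3 minus the control mean. Galk1 lies at 1.39 with an interval of 1.18 to 1.60, Pgd at 0.50, and the circle of the library labelled knockout 3 is between -0.23 and 0.16 for all 9 genes.

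Of the galactose pair, Galk1 rose and Galt did not pass. Galk1 (chromosome 11, 116008457 to 116012719, minus strand) had 51.3, 50.01 and 43.6 in controls and 132 and 124 in knockouts 1 and 2. Both knockout values were far above the highest control, and the other 4 libraries lay close together. The log2 fold change was 1.39 ± 0.09 (adjusted p = 0.00025, limma, with 416 to 1635 reads per library), and knockouts 1 and 2 were 2.58 and 2.48 times as high as their littermates. Among all 13843 genes it had the rank 24 by p and the rank 84 by rise. It passed in each fit that left out a single library, with log2 fold changes of 1.32 to 1.44.

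Galt, the next enzyme of the route (chromosome 4, 41755228 to 41758695, plus strand), had 36.7, 32.8 and 29.2 in controls and 27.6 and 26.7 in knockouts 1 and 2. The knockouts lay just below control 3, and the controls themselves spread by 11.5% of their mean. The log2 fold change was -0.26 ± 0.11 (95% interval -0.53 to 0.00, adjusted p = 0.29, limma), with -0.40 and -0.29 within litters. Galt lies inside the annotated span of Il11ra1 on the same strand. Il11ra1 was at 59.4 ± 6.71 in controls and 70.7 and 55.3 in knockouts 1 and 2. Reads from bases shared on the same strand cannot be told apart by strand, and those shared on opposite strands only where libraries mark strand.

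The promoters of the galactose pair are shown because they share a motif while only the first gene rose, with those of Pgd, which rose, and Taldo1, which did not. Each line gives the 250 bases before the annotated start, from RefSeq on GRCm38.p6, read along the gene. The gene spans given above come from another annotation, GENCODE, whose starts can differ. By GENCODE the whole Galt stretch lies inside the gene, whose span starts at 41755228, and the Pgd stretch does so in part. Capitals mark ACGTG or GCGTG, the core of the hypoxia response element on either strand, and CACGTG holds ACGTG on both strands.
Galk1, chr11:116012720-116012969, minus strand: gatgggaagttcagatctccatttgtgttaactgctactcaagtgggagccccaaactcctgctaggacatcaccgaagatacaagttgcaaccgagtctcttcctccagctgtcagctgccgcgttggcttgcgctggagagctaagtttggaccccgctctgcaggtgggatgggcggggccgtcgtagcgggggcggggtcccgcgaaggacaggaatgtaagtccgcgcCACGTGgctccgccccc
Galt, chr4:41755267-41755516, plus strand: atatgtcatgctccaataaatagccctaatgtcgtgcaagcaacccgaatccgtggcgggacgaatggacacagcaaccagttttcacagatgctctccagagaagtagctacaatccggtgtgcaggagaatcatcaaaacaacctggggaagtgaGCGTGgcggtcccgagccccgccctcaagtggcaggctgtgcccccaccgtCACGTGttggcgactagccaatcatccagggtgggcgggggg
Pgd, chr4:149166706-149166955, minus strand: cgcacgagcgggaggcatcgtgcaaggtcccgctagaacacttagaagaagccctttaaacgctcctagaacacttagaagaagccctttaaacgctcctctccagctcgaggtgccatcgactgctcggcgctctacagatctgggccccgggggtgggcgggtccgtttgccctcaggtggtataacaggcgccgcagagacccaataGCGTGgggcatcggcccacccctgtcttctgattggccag
Taldo1, chr7:141391910-141392159, plus strand: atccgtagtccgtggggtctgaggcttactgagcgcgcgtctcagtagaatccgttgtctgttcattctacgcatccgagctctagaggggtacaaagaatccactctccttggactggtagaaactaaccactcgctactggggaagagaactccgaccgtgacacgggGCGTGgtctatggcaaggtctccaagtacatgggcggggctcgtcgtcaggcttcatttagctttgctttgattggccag

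Both Galk1 and Galt held the E-box CACGTG, 17 bases before the RefSeq start in Galk1 and 42 before it in Galt. By the GENCODE span the Galt match lies inside the gene. Over windows of 300 bases (250 before to 50 after the start), 7.15% of all 32851 promoters held CACGTG, and 9.89% of the 13329 promoters of measured genes. Either core, ACGTG or GCGTG, was in 43.8% of all promoters and in 61.2% of those of measured genes. It was in 8 of the 11 member promoters, the measure like these shares. Counted by gene, it was in at least 1 window of 8 of the 9 members, the exception being Rpe, and of 15 of 20 measured glycolysis genes. Pgd and Taldo1 both held GCGTG, 40 and 80 bases before the RefSeq start, and Taldo1 held it again at base 25 after it. A short stretch after the RefSeq start of Taldo1 was not found in its GENCODE transcripts, unlike those of the other member promoters. TGANNNNGC, the core of the antioxidant response element, was searched on both strands too. It was in 5 of the 11 member promoters (of G6pdx, Tkt, Taldo1, Pgd and Galt, in the last pair at an inner start) and in 41.3% of all promoters. A match is a run of letters and not evidence of binding.

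**Figure D3:**
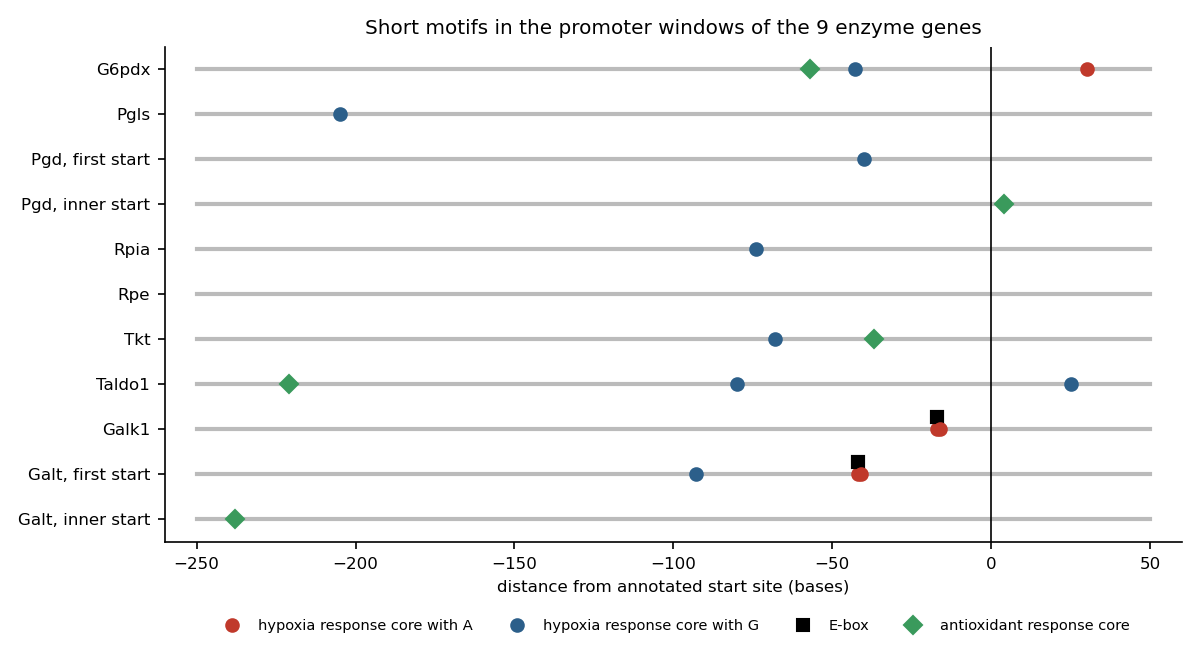
Positions of short motifs (horizontal axis, bases from the annotated start site, both strands) in the 300-base windows of the 9 genes, with inner starts of Pgd and Galt as lines of their own. Black squares mark the E-box in Galk1 and Galt, circles the hypoxia response core with A or G, and diamonds the antioxidant response core.

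Ratios within a library do not depend on the scaling of that library. Galk1 was 1.40 to 1.52 times Galt in controls, and 4.79 and 4.65 times in knockouts 1 and 2. The library labelled knockout 3 had 1.72. The knockout ratios stood far above every control. The ratio of Pgd to Taldo1 was 0.96 to 1.02 in controls and 1.46 and 1.38 in knockouts 1 and 2. Pgd was 0.108 to 0.116 of Gpi1, the glycolytic isomerase at the branch point to the pentose phosphate pathway, in controls, and 0.105 and 0.110 of it in knockouts 1 and 2, so that the groups overlapped. Against Pfkl, the liver-type phosphofructokinase of the next glycolytic step, Pgd went from 0.309 to 0.325 in controls to 0.205 in both knockouts. Galk1 was 0.480 to 0.565 of Hk2, the hexokinase of muscle, in controls and 0.555 and 0.530 of it in knockouts 1 and 2, which overlapped. These are 5 of 15 ratios computed after the values were seen. In a two-sided exact permutation test of 2 against 3 the smallest possible p is 0.1, which Galk1/Galt, Pgd/Taldo1 and Pgd/Pfkl reached (Benjamini-Hochberg 0.17), with p = 0.4 for Pgd/Gpi1 and 0.7 for Galk1/Hk2.

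**Figure D4:**
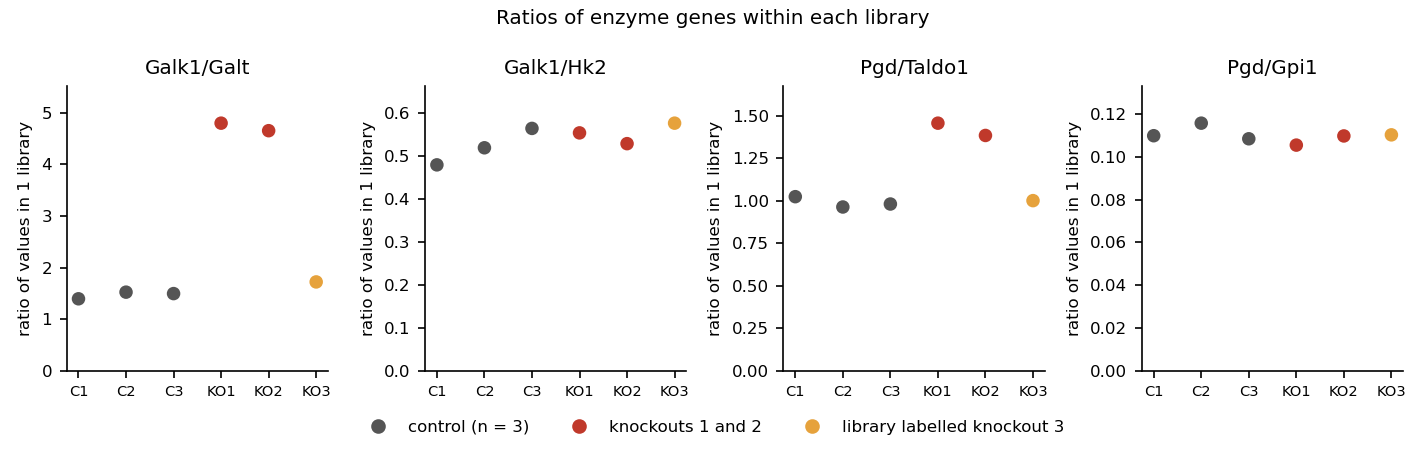
Ratio of the values of a pair of genes within each library (vertical axes from 0, no length correction; C, control; KO, labelled knockout). Galk1/Galt and Pgd/Taldo1 are higher in knockouts 1 and 2 than in every control, while Galk1/Hk2 and Pgd/Gpi1 overlap between groups.

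Per kilobase of exon, Taldo1 was the highest member in controls at 67.2 ± 2.10 (SD, n = 3), followed by Pgd at 40.9 ± 1.43. Galk1 at 34.4 ± 2.91 and Pgls at 33.9 ± 1.70 overlapped between control libraries, and their order turned with the longest transcript as the length. Next came Tkt at 22.1 ± 2.75 and Galt at 17.7 ± 2.03, which also overlapped. Rpe stood at 11.5 ± 0.348, and G6pdx at 7.20 ± 0.843 overlapped with Rpia at 6.77 ± 0.929. In knockouts 1 and 2 the level of Galk1 per kilobase was 94.0 and 88.4, above Taldo1 at 64.6 and 68.2, the highest member in controls.

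The library labelled knockout 3 followed the controls for Galk1 (53.9) and Pgd (89.0). Of the 9 members it was inside the range of the controls for 4, above it for 1 (Galk1) and below it for 4 (Pgls, Rpe, Tkt and Taldo1). Over all genes it was inside that range for 56.1%, above it for 22.2% and below it for 21.7%. With all 6 libraries as labelled, the log2 fold change of Galk1 was 0.98 ± 0.30 and that of Pgd 0.32 ± 0.14 (adjusted p = 0.77 for both, limma). Those of G6pdx and Tkt were then 0.28 ± 0.16 and 0.18 ± 0.18.

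Most glycolytic steps had a gene that rose, but the enolase step had none (Eno1, Eno2 and Eno3 at log2 0.33, -0.67 and -0.25). Of 20 measured genes from hexokinase to lactate dehydrogenase 12 rose and 0 passed as lower (3.01% and 1.24% of all genes). At an unadjusted p under 0.05, 4 were lower, where 8.05% of all genes were. Both knockouts lay above all controls for 12 and below them for 5, where 18.1% and 17.0% of all genes did. The median log2 fold change was 0.85. Hk2 had values of 107, 96.2 and 77.2 in controls and 238 and 235 in knockouts 1 and 2 (log2 1.34 ± 0.13), while Hk1, the common hexokinase, was at 384 ± 40.0 in controls and 402 and 414 in the knockouts. Gpi1 rose by 0.55 ± 0.08 (adjusted p = 0.011), a size near that of Pgd, and its call was lost without control 2, control 3 or knockout 1 (adjusted p = 0.081, 0.051 and 0.068). The rise of Pfkl was 1.13 ± 0.07, that of Pfkp, another phosphofructokinase, 1.11 ± 0.07, that of Gapdh 0.93 ± 0.09 and that of Ldha 1.19 ± 0.10. Aldoc, a minor aldolase, went from 8.76, 6.46 and 7.03 to 40.5 and 31.6 (2.14 ± 0.17). With litter as a block 1 glycolysis gene passed as lower, the enolase Eno2.

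**Figure D5:**
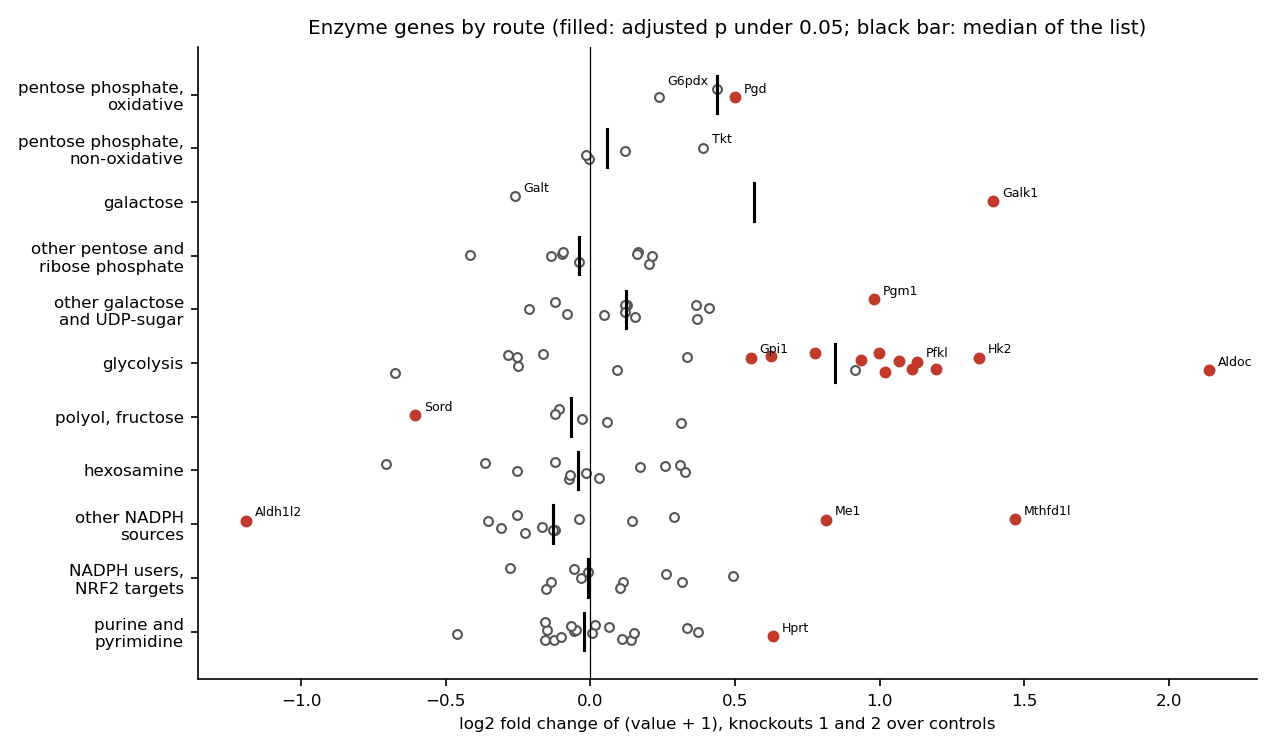
Log2 fold change of (value + 1), knockouts 1 and 2 over controls (horizontal axis), for each measured gene of 11 lists, with filled points for an adjusted p under 0.05 and a black bar at the median of each list. The 12 filled glycolysis points lie between 0.55 and 2.14, and Galk1, Pgd and Pgm1 are the filled points of the pentose phosphate, galactose and UDP-sugar rows.

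Of the 12 other galactose and UDP-sugar genes, Pgm1 was the gene that rose. This phosphoglucomutase, the last step that turns galactose carbon into glucose phosphate and also a step of glycogen use, stood at 240.0, 225 and 214 in controls and 473 and 422 in knockouts 1 and 2 (log2 0.98 ± 0.08, adjusted p = 0.00073, limma). Another 2 of the 12 were higher at an unadjusted p under 0.05, 0 were lower, and the list median was 0.12. With litter as a block 2 of the 12 were higher, Ugdh being the other (adjusted p = 0.010, against 0.15 without the block, limma). Named after their values were seen, Galk2, a kinase of a related amino sugar, was at 37.2 ± 1.48 in controls and 39.5 and 31.1 in knockouts 1 and 2, and Galm, the mutarotase before galactokinase, at 11.7 ± 0.807 and then 9.13 and 10.8. Neither passed (adjusted p = 0.77 and 0.51, limma).

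Genes that take ribose phosphate onward are counted here beside the shares of all genes. Of all genes 3.01% passed as higher and 1.24% as lower (4.25% in either direction, limma). At an unadjusted p under 0.05, 9.74% were higher and 8.05% lower. With litter as a block 4.92% were higher and 3.21% lower. Of 13 listed genes around the pentose phosphate and ribose phosphate pools 9 were measured and 0 passed, with 1 lower at an unadjusted p under 0.05 and a median of -0.04. That gene was Prps2, a synthetase that activates ribose phosphate, at 95.7, 73.4 and 91.5 in controls and 75.0 and 55.3 in knockouts 1 and 2 (log2 -0.42 ± 0.15, adjusted p = 0.21, and 0.021 with litter as a block). Of 18 genes of purine and pyrimidine synthesis and salvage 1 rose and 0 passed as lower (3 higher and 1 lower at an unadjusted p under 0.05, median -0.02), and with litter as a block 2 were higher and 1 lower. The gene that rose was Hprt, which salvages purine bases with activated ribose phosphate, from 97.9 ± 5.90 to 159 and 145 (log2 0.63 ± 0.08, adjusted p = 0.0059, limma, and 0.057 without knockout 1).

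Of 13 measured genes of NADPH sources and the folate enzymes linked to them, 2 rose and 1 fell, with a median of -0.13, and with litter as a block 2 were higher and 4 lower. Mthfd1l, a mitochondrial folate enzyme that does not itself make NADPH, had 40.9, 35.9 and 38.5 in controls and 114 and 102 in knockouts 1 and 2 (log2 1.47 ± 0.09, adjusted p = 0.00023, limma). Me1, the cytosolic malic enzyme, which makes NADPH, rose from 65.2 ± 3.61 to 137 and 97.1 (0.81 ± 0.14, adjusted p = 0.018). Its adjusted p was 0.081, 0.051 and 0.058 without control 2, control 3 and knockout 1. Aldh1l2, a mitochondrial enzyme that makes NADPH from folate, fell from 68.7 ± 9.91 to 29.7 and 29.0 (log2 -1.19 ± 0.12, adjusted p = 0.0021, limma). Of 11 NADPH users and NRF2 targets 0 passed (2 higher and 1 lower at an unadjusted p under 0.05, median -0.01), and with litter as a block 1 was higher, Hmox1 (adjusted p = 0.031, against 0.078 without it, limma).

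Among the remaining side routes, the polyol list had 1 fall in 6 genes. Sord, which turns sorbitol into fructose, had 64.5, 58.2 and 73.2 in controls and 45.7 and 39.3 in knockouts 1 and 2 (log2 -0.61 ± 0.12, adjusted p = 0.030, limma). That call was lost without control 1, control 3, knockout 1 or knockout 2 (adjusted p = 0.072, 0.068, 0.078 and 0.15). Of 12 genes of the hexosamine route 0 passed, with 3 higher and 2 lower at an unadjusted p under 0.05 (9.74% and 8.05% of all genes) and a median of -0.04, and with litter as a block 1 was lower, Gfpt2 (adjusted p = 0.034, against 0.085 without it, limma).

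The genes with the profile nearest to that of Galk1 over the 6 libraries were Grhpr, a glyoxylate reductase (29.7, 31.2 and 25.9 in controls, 73.6 and 74.7 in knockouts 1 and 2), Selenbp1, a selenium-binding protein (30.8, 29.03 and 28.4, then 77.5 and 70.7), and Hk2. Their distances from Galk1, on centred log2 values over 6 libraries and among 6883 genes above the median level, were 0.13, 0.18 and 0.21. For Galt, the member with the lowest fold change, the nearest were Ehbp1l1, Klhdc10 and Ndufv1, a subunit of respiratory complex I, at distances of 0.090, 0.096 and 0.101. Ndufv1 was lower with litter as a block (log2 -0.38, adjusted p = 0.013) and did not pass without it (-0.31 ± 0.09, adjusted p = 0.14, limma). Each of these libraries also carries its own depth and tissue makeup, which the profiles share.

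Markers of other cells moved with the comparison in part. The 7 epicardial markers summed to 305 to 377 in controls, with knockouts 1 and 2 at 725 and 629 and the library labelled knockout 3 at 345, and with 3 of 7 higher (6 of 7 with litter as a block) and 0 at 0 in any library. The 8 mesenchymal and smooth muscle markers summed to 1855 to 2682 in controls and 3859 and 3195 in knockouts 1 and 2, with 2 of 8 higher (3 of 8 with litter as a block). The 8 endothelial markers summed to 1409 to 1500 and to 1618 and 1625, with 1 of 8 higher, and the 5 measured atrial markers to 4743 to 5625 and to 7556 and 6110, with 1 of 5 higher. Krt19 carried much of the epicardial rise, at 42.7 ± 7.03 in controls and 268 and 210 in knockouts 1 and 2. All 7 epicardial markers had a log2 fold change above 0, with Tbx18 and Aldh1a2 at 0.30 each. Single markers did not all follow these sums. Both knockouts lay above all controls for 6 of 7 epicardial, 3 of 8 mesenchymal, 5 of 8 endothelial and 2 of 5 atrial markers. Of all genes 18.1% did so. Col1a1, a mesenchymal marker, was at 732 in knockout 1 and 263 in knockout 2, with 335, 293 and 379 in controls. The part of these cell types in the differences of Galk1 and Pgd was not tested. The 10 erythroid markers overlapped between groups, at 6421 to 14488 in controls and 7083 and 15597 in knockouts 1 and 2, as did the 7 measured macrophage markers at 73.0 to 106 and at 86.9 and 77.0.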

How the data were processed

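RNA from the ventricles of 6 single embryos was sequenced as single reads of 75 bp from 500 ng of total RNA per library, per the labels' protocols. Per the submitters' processing notes, the authors used CASAVA 1.8.2, cutadapt 1.3 and RSEM 1.2.3 with GRCm38, while annotation, gene filter and scaling steps are not given in the sources used here. Values as deposited by the authors are a normalized signal. In each column 100% of values were whole multiples of 1 step (within 0.01 reads), and the steps equalled effective library sizes by edgeR's trimmed mean of M values at a ratio of 1. Every gene had at least 1 in at least 3 libraries. Symbols came from GENCODE M21 on GRCm38 (13675 genes, 168 without), and coordinates and exon lengths from its basic set.

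The test was limma 3.58.1 with trend (R 4.3.3) on log2(value + 1), 3 controls against knockouts 1 and 2, with Benjamini-Hochberg adjustment over all genes at 0.05. It was also run on simulated counts with the same dispersion for all genes and no litter effect. Those counts cannot check how the test handles the spread between these embryos. Fold changes on the log2(value + 1) scale understate the change of low genes. Replicates are single embryos, with the litter of each given in the labels. The p-values rest on the spread between these embryos, which limma draws for each gene toward the spread of other genes. Alternatives were all 6 libraries, litter as a block, pseudocounts of 0.5 and 5, a mean filter of 5, other scalings, edgeR 4.0.16 and DESeq2 1.42.0 on recovered reads, and leaving out each library. The litters in the labels pair libraries 1 and 2 of each group. Their deviations from the group means, with knockout 3 counted as labelled, correlated at 0.20 and 0.28 over genes. Pairs from different litters had 0.01 (the libraries numbered 3), -0.33 (control 1 and knockout 2) and -0.12 (control 2 and knockout 1). Because knockout 3 is part of the knockout mean, these values do not settle the pairing. The block fit has 1 residual degree of freedom, so its spread is mostly pooled over genes.

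Members, lists and tests were chosen with earlier results of these data known. Named genes were the 9 members, Vhl, Hif1a and Nkx2-5, the glycolysis genes Hk1, Hk2, Gpi1, Pfkl and Ldha, up to 5 genes past the threshold in each other list, and the 3 nearest profiles of the members with the highest and lowest fold change. In controls Hif1a was at 436 ± 27.7 (SD, n = 3) and Nkx2-5 at 74.5 ± 5.40. Knockouts 1 and 2 had 185 and 163 for Hif1a and 51.6 and 66.7 for Nkx2-5, and the library labelled knockout 3 had 473 and 80.3. Oga was matched through its older symbol Mgea5. Some genes of the lists or beside members are not reported here by name. Intervals and adjusted p-values cover the spread between embryos, in part pooled over genes, not other litters.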

Additional observations from a re-analysis of the deposited data

How the results depend on the processing

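Galk1 and Pgd were the members called in knockouts 1 and 2 under the other pseudocounts, the mean filter, both other scalings, edgeR and DESeq2. With all 6 libraries as labelled, 0 genes were higher and 0 lower, with 0 members and 0 glycolysis genes higher. With litter as a replicate block (litters 1 and 2), 681 genes were higher and 444 lower, 4 members were higher (G6pdx and Tkt besides Galk1 and Pgd), 1 glycolysis gene was lower and Rpe was at log2 0.0021. The block also changed the calls of Nkx2-5 (log2 -0.39, adjusted p = 0.029, limma) and Ndufv1, and of no other single gene named by the rule among the members, the label checks and the metabolic lists. DESeq2 put 276 genes lower. Leaving out single libraries gave 146 to 297 genes higher and 44 to 90 lower, with 1 to 2 members higher. The member lost was Pgd, without knockout 1. Over these fits Rpe ranged from -0.082 to 0.075 and Taldo1 from -0.054 to 0.022 on the log2 scale, so both changed sign near 0. The cause of these shifts was not tested. Rescaling moved the median of all genes to -0.02 at most. With 112 to 315 reads per library, Rpia and G6pdx are the members whose values counting limits most.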

Other observations

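The neighbours of Galk1 along chromosome 11, chosen after its values were seen, did not pass in the comparison of knockouts 1 and 2 with controls. H3f3b, a histone gene on one side, was at 309 ± 37.7 (SD, n = 3) in controls and 367 and 371 in knockouts 1 and 2 (log2 0.26 ± 0.11, adjusted p = 0.25, limma, and 0.040 with litter as a block). Sap30bp was at 38.9 ± 2.80 in controls and 37.8 and 42.5 in the knockouts, and Recql5, a DNA helicase, at 18.3 ± 0.524 and then 16.4 and 20.5. The values of Sap30bp and Recql5 overlapped between the groups.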
